A study of Mus musculus with 5 samples.

Results

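The 77 genes described here are the mitochondrial ribosomal proteins named Mrpl or Mrps in the deposited table of normalised counts, chosen by symbol alone (Mrpl or Mrps, a number and at most one letter from a to c). They are 77 of the 27526 genes in that table. By the established composition of the mammalian mitochondrial ribosome, 50 of them belong to the large subunit, 26 to the small subunit and 1, Mrps36, to neither. RNA had been sequenced from mouse cells described in the labels as Kit-positive leukaemia stem cells, all carrying AML1-ETO9a, a shortened form of the fusion of RUNX1 with RUNX1T1. There were 3 libraries labelled Plcg1 -/- by conditional deletion (deleted 2, 4 and 6) and 2 labelled Plcg1 +/+ (wild-type 1 and 3); Plcg1 encodes phospholipase C-γ1. The deleting Cre, how the fusion was delivered, the age of the mice and whether each library came from its own mouse are not stated in the labels. The p-values therefore speak only to how these 5 libraries vary, and that variation may be technical. The comparison addresses, by the title of the series, how Plcg1 bears on leukaemia stem cells that renew themselves.

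Mitochondria keep a small genome whose messenger RNAs encode core subunits of the respiratory chain, and a ribosome of their own translates them. Its ribosomal RNAs come from mitochondrial DNA, but every one of its proteins is encoded in the nucleus, made in the cytosol and imported. The small subunit binds the messenger RNA and reads its codons, the large subunit joins the amino acids, and both hold proteins inherited from a bacterial ancestor beside proteins found only in mitochondria. Human acute myeloid leukaemia cells are known for a dependence on mitochondrial translation.

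The libraries held 52560713 to 57133771 gene counts in the group labelled deleted and 37306507 and 51682298 in the group labelled wild-type, and the labels were not borne out by all markers. Plcg1 was not lower in the libraries labelled deleted, with levels of 52.998, 26.9 and 37.1 CPM (a count relative to its library size, corrected by the TMM method) in deleted 2, 4 and 6 and of 22.1 and 34.0 CPM in wild-type 1 and 3. Its log2 fold change (deleted minus wild-type throughout) was 0.48 ± 0.37 (SE) and its adjusted p 0.543 by edgeR's quasi-likelihood test; counts per gene include exons outside the deleted part and cannot check the deletion. Runx1t1, the mouse counterpart of a partner in the fusion, stood at 106, 74.0 and 13.5 CPM in the deleted libraries and at 0.121 and 0.234 CPM in the wild-type ones. All libraries are labelled as carrying the fusion, but whether its reads count towards mouse Runx1t1 is not known from the labels. Kit, the marker of the selected cells, measured 672, 304 and 3.08 CPM in deleted 2, 4 and 6, against 26.8 and 32.1 CPM in wild-type 1 and 3. The 10 stem and progenitor markers, Kit included, summed to 1462, 852 and 72.0 CPM in deleted 2, 4 and 6, against 1067 and 1069 CPM. They did not move together. Without deleted 6, 3 of the 10 were higher and 4 lower at an edgeR adjusted p under 0.05, against 7.89% and 5.07% of all genes. All 10 were lowest in deleted 6. The 18 proliferation markers summed to 3548, 3214 and 247 CPM in deleted 2, 4 and 6, against 4835 and 5391 CPM in wild-type 1 and 3, and all 18 were lowest in deleted 6. The 19 monocyte and macrophage markers summed to 23463, 42696 and 140221 CPM in deleted 2, 4 and 6, against 20065 and 20197 CPM. They did not move together: 9 of the 19 were highest and 6 lowest in deleted 6, where Lyz2 alone stood at 68117 CPM. The 10 neutrophil granule markers summed to 14986, 17046 and 1391 CPM in deleted 2, 4 and 6, against 18987 and 20617 CPM. The 10 mast cell markers summed to 11942 and 5336 CPM in deleted 2 and 4 but to 35.8 CPM in deleted 6, against 63.6 and 108 CPM in the wild-type libraries, while the 8 T and B cell markers stayed at or under 0.482 CPM in sum, with Cd3e and Cd3g at 0 in every library. Deleted 6 thus stood apart from deleted 2 and 4, so the main results are given with and without it, and all directions refer to the labels. In bulk RNA, fewer cells of a type and less RNA per cell cannot be told apart. The part of these differences in the results below was not tested.

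Promoters are shown for 4 genes, the 3 lowest fold changes among 23 genes lower in every deleted library, and the 1 gene higher there. They are RefSeq's 250 bases before to 50 after the transcript start on GRCm38.p6, at chr5:31613701-31614000 (plus strand), chr1:79775768-79776067 (plus), chr7:105811038-105811337 (minus) and chr16:92058086-92058385 (plus), printed 5′ to 3′. Capitals mark NRF1 motif letters (GCGCANGCG) and ETS motif letters (CCGGAAG) on either strand. NRF1 and GABPA, an ETS factor, are known activators of genes for mitochondrial proteins.
Mrpl33: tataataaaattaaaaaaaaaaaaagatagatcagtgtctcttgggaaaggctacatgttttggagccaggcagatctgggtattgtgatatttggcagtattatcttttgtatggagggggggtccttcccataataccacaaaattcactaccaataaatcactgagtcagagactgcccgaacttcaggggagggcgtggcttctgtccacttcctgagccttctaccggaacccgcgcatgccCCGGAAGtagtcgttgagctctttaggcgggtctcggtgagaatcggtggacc
Mrpl44: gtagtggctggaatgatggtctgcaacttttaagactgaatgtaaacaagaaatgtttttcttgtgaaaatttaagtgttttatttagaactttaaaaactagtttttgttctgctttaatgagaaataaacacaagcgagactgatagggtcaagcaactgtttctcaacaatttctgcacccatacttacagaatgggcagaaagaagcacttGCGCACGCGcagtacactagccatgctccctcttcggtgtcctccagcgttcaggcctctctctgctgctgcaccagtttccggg
Mrpl17: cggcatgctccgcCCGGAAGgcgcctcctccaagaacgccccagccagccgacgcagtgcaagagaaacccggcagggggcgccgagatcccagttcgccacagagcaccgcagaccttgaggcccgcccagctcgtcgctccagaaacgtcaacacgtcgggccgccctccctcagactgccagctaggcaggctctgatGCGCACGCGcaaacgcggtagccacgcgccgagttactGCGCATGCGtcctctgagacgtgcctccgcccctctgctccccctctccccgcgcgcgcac
Mrps6: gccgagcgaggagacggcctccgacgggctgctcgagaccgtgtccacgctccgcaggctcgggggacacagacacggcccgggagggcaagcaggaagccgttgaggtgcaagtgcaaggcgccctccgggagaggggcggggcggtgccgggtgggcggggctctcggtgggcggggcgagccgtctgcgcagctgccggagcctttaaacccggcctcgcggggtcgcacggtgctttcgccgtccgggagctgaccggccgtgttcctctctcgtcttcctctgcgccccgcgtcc

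Mrpl33 held 1 ETS match, Mrpl44 1 NRF1 match, and Mrpl17 2 NRF1 matches and 1 ETS match; the Mrps6 window held no match to either. Of 77 genes, 68 had an entry in the promoter table, with 74 promoters in all. Among these 74, 21.6% held the NRF1 letters, 33.8% the ETS letters, 13.5% a YY1 motif (ANATGGCG) and 9.46% an E-box (CACGTG, the core bound by MYC). Some genes have several promoters, and the 7 promoters with an E-box belong to 5 of the 68 genes. Among all 32851 mouse promoters in the table the shares were 6.25%, 8.86%, 3.65% and 7.15%. The windows of the ribosomal protein genes were rich in CpG, with a median of 21.5 CpG and 58.5% GC, against 7 CpG and 52.7% GC over all promoters. Among the other promoters at least as CpG-rich as their lower quartile, 10786 in number, the shares were 16.4% for NRF1, 19.0% for ETS, 7.57% for YY1 and 11.4% for the E-box. A match describes letters in the window, not a bound site. Mrpl13, Mrpl15, Mrpl19, Mrpl38, Mrpl4, Mrpl54, Mrps28, Mrps34 and Mrps35 were the genes without a promoter entry.

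Mitochondrial ribosomal protein transcripts varied little between the libraries, including deleted 6. In 70 of 77 genes the highest library was under 2 times the lowest, against 39.4% of all 16120 genes tested. Among 4447 other genes of similar mean level (20.8 to 85.1 CPM) the share was 59.7%. The ratio of highest to lowest library had a median of 1.49 over the 77 genes and ran from 1.09 to 2.85, against a median of 1.77 over those genes of similar level and 2.45 over all genes. The 7 genes that passed 2 were Mrpl33, Mrpl44, Mrpl17, Mrps35, Mrpl15, Mrpl18 and Mrpl16, and each was lowest in deleted 6. Deleted 6 lay between 0.515 times (Mrps35) and 1.56 times (Mrpl27) the mean of the other 4 libraries, so no ribosomal protein gene was under 0.5 times or over 2 times it. Over all genes 23.6% were under 0.5 times and 16.5% over 2 times.

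**Figure D1:**
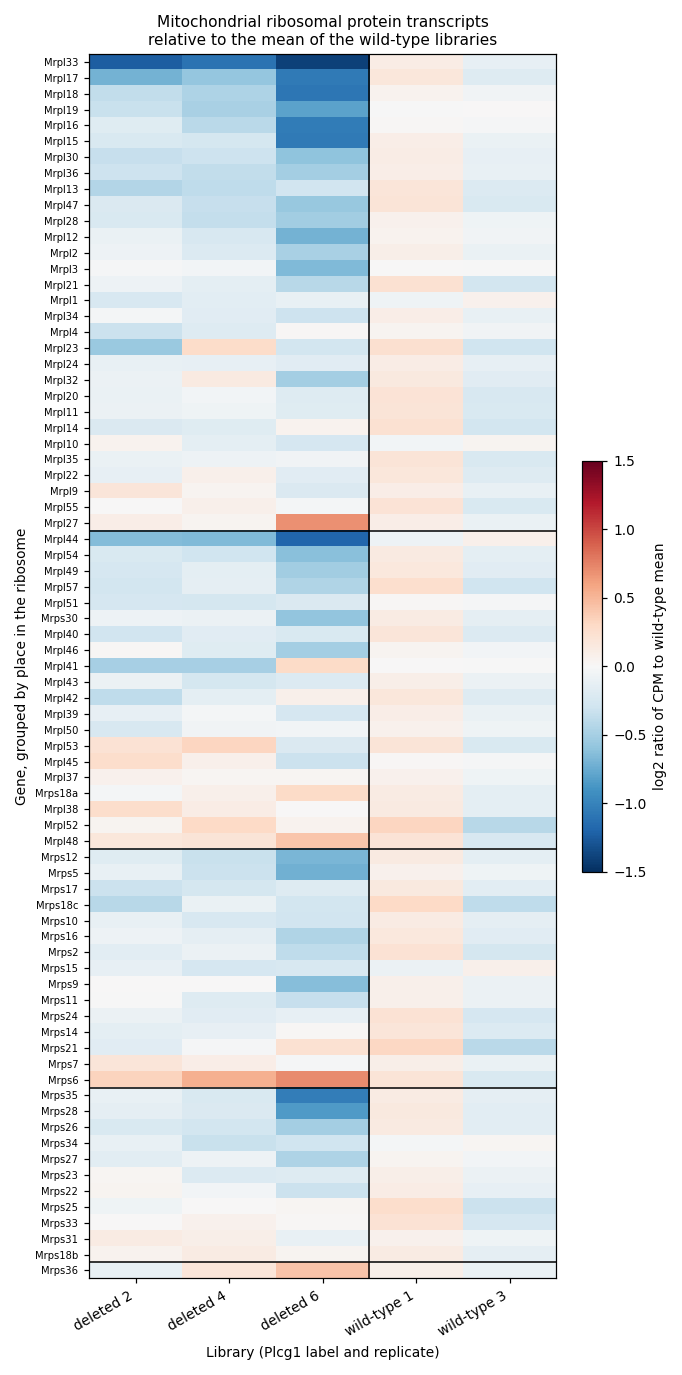
Log2 ratio of CPM to the mean of the wild-type libraries for each of the 77 genes (down the page), in each library (across). Blocks hold large-subunit proteins listed with a bacterial counterpart, those listed as mitochondria-specific, the small subunit likewise, and Mrps36. Mrps18a and Mrps18b are drawn in the mitochondria-specific blocks, although they share descent from a bacterial protein with Mrps18c. Blue is lower and red higher; Mrpl33, Mrpl17 and Mrpl44 are blue in all 3 libraries labelled deleted, and most other genes stay pale.

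Summed over the 77 genes, the transcripts stood at 3803, 3764 and 3383 CPM in deleted 2, 4 and 6, against 4656 and 3969 CPM in wild-type 1 and 3. Every deleted library was below both wild-type ones, but wild-type 3 lay closer to deleted 2 and 4 than to wild-type 1. The large subunit gave 2636, 2621 and 2335 CPM in the deleted libraries and 3293 and 2848 CPM in the wild-type ones. The small subunit gave 1163, 1138 and 1042 CPM in the deleted libraries and 1358 and 1118 CPM in the wild-type ones, where wild-type 3 fell inside the deleted range. Wild-type 1 was the highest of the 5 libraries in 56 of the 77 genes, against 18.4% of all genes, and deleted 6 the lowest in 40, against 38.2%. All 3 deleted libraries were below both wild-type ones in 23 of the 77 genes, against a background of 23.7% of all genes, and above both in 1 gene, Mrps6, against 22.4%.

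Level per length differed widely between the proteins. The median was 17.9 CPM per kilobase of exon. The highest levels were those of Mrpl34 at 80.7, Mrpl28 at 73.7, Mrpl18 at 70.4, Mrpl36 at 61.9, Mrps21 at 57.1 and Mrpl20 at 54.1 CPM per kilobase, of which all but Mrps21 are large-subunit proteins, and all 6 have bacterial counterparts. Mrps35 (4.85), Mrps36 (3.65), Mrpl48 (2.51) and Mrpl23 (0.244 CPM per kilobase) were the lowest of the genes tested. Mrps36 is a component linked to the 2-oxoglutarate dehydrogenase complex of the citric acid cycle. Mrpl53 did not pass the filter on low counts, at 0.0901 to 0.132 CPM, and 88.0% of its exon bases lie in exons of another gene. Mrpl23, at 0.858 to 1.53 CPM, shares 11.8% of its 50-base stretches with other genes, first among them its pseudogene Mrpl23-ps1. The count files keep ambiguous reads and reads that aligned to several places apart from the genes, so the levels of Mrpl53 and Mrpl23 are uncertain. The order also rests on the length used: taken per longest coding transcript, Mrpl33 came first, at 204 CPM per kilobase, since its merged exons span 7326 bases and that transcript 478.

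With all 5 libraries no gene of the 16120 tested had an adjusted p under 0.05 by edgeR (0.0% called in either direction), and so none of the 76 ribosomal protein genes tested did. At an unadjusted p under 0.05, 4 ribosomal protein genes were lower and 0 higher in the deleted libraries, against 5.42% and 9.44% of all genes. Fold changes were negative for 60 of the 76, with a median log2 fold change of -0.18, against 0.01 over all genes. Without deleted 6, edgeR called 5.07% of 15787 genes lower and 7.89% higher. Of the 76 ribosomal protein genes, 2 fell, Mrpl33 and Mrpl44, and 0 rose. Their median log2 fold change was -0.11, against -0.01 over all genes. DESeq2 called 3.05% of genes lower with all 5 libraries and 1 ribosomal protein gene, Mrpl33, while limma-voom with sample weights called 5.87% and 4 of them, Mrpl17, Mrpl19, Mrpl33 and Mrpl44. Without deleted 6, DESeq2 called 7.66% of genes lower and 4 ribosomal protein genes, Mrpl17, Mrpl33, Mrpl41 and Mrpl44, and limma-voom called 4.99% and 2 of them, Mrpl33 and Mrpl44. Neither tool called a ribosomal protein gene higher, against 5.75% of all genes in DESeq2 and 7.63% in limma-voom with all 5 libraries, and 10.9% and 7.53% without deleted 6. Per the file names, deleted 2 and 4 and wild-type 3 were sequenced in lane 4, deleted 6 in lane 5 and wild-type 1 in lane 3. Within lane 4 alone, edgeR called 0.779% of genes lower and 1.26% higher, no ribosomal protein gene among them, and the median log2 fold change of the 76 was 0.0033, against 0.02 over all genes, with 38 negative. Lanes 3 and 5 hold 1 library each and gave no value. Without wild-type 1 the median was -0.05, against 0.05 over all genes, and without wild-type 3 it was -0.27, also against 0.05. The median of the 76 thus changed with the library left out, deleted 6 included, and within lane 4 alone no shared lower level was seen. The cause was not tested.

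**Figure D2:**
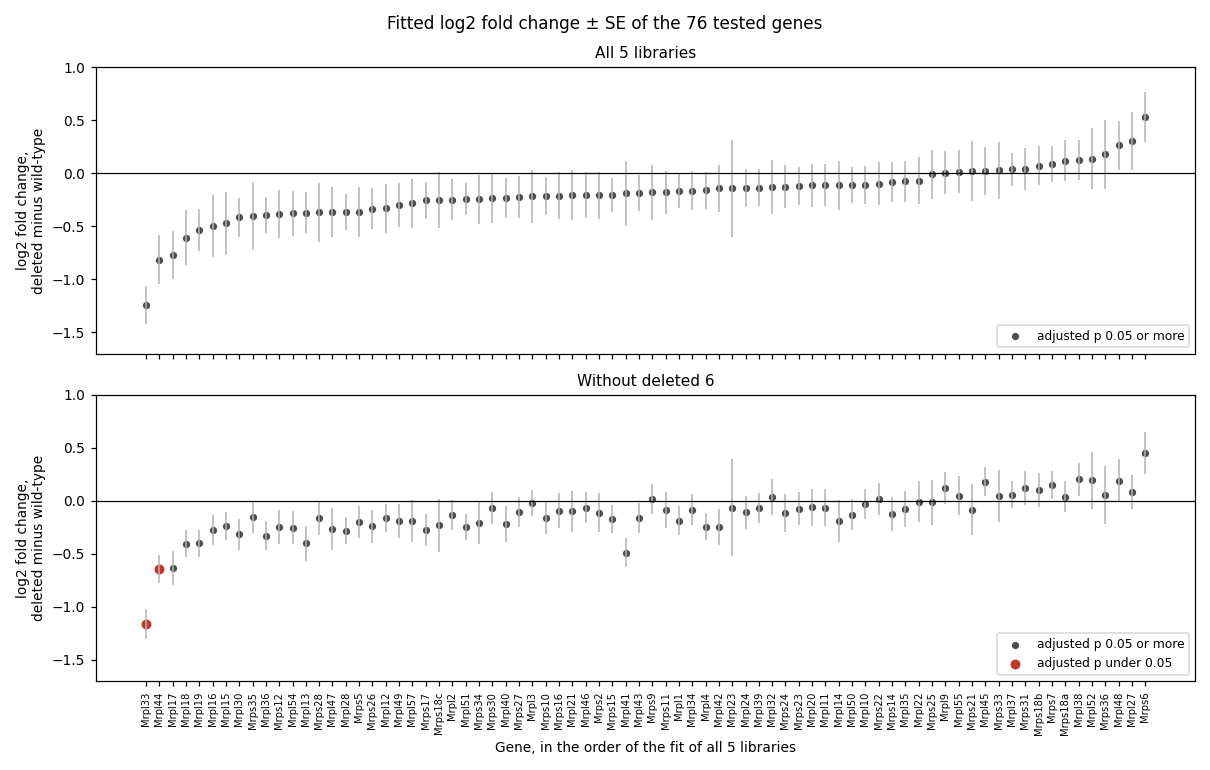
Fitted log2 fold change ± SE (deleted minus wild-type, edgeR) of the 76 genes tested, with all 5 libraries (top) and without deleted 6 (bottom), both in the order of the upper panel. Mrpl33 lies lowest in both panels, at -1.24 and -1.16, and Mrps6 highest, at 0.53 and 0.45.

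Mrpl33, a small large-subunit protein with a bacterial counterpart (ENSMUSG00000106918.2; GENCODE M21 on GRCm38, chr5:31596935-31664384, plus strand), differed most. The promoter shown above starts inside this annotated span. Its levels were 63.2, 69.1 and 56.6 CPM in deleted 2, 4 and 6, against 162 and 137 CPM in wild-type 1 and 3. The groups were far apart, and deleted 6 lay close to deleted 2 and 4. It averaged 62.99 ± 6.27 CPM in the deleted libraries (SD, n = 3) and 149 ± 17.5 CPM in the wild-type ones (SD, n = 2). The log2 fold change was -1.24 ± 0.18 (SE) with all 5 libraries (edgeR adjusted p of 0.133), and -1.16 ± 0.14 without deleted 6 (edgeR adjusted p of 0.00475). Within lane 4 it was -1.04 (edgeR adjusted p of 0.0610). It ran from -1.36 to -1.04 over 11 alternative fits, of which 3 called it. The gene overlaps Rbks on the opposite strand, a ribokinase gene at 13.0, 11.5 and 8.43 CPM in the deleted libraries and 15.7 and 15.996 CPM in the wild-type ones. The kit does not mark strand, so reads of overlapping genes cannot be told apart where their exons coincide. Only 3.56% of Mrpl33's exon bases lie in exons of another gene.

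Mrpl44, a large-subunit protein specific to mitochondria with a ribonuclease III-like domain, was also lower in every deleted library. Its values were 50.7, 50.1 and 34.96 CPM in deleted 2, 4 and 6, against 75.5 and 83.7 CPM in wild-type 1 and 3. Its log2 fold change was -0.81 ± 0.23 (SE) with all 5 libraries (edgeR adjusted p of 0.255), and -0.65 ± 0.13 without deleted 6 (edgeR adjusted p of 0.0260). Mrpl44 starts head to head with Wdfy1, an adaptor of endosomes, which stood at 11.3, 14.1 and 94.9 CPM in deleted 2, 4 and 6, against 57.6 and 61.3 CPM in wild-type 1 and 3. Wdfy1 fell by 2.22 on the log2 scale without deleted 6 (edgeR adjusted p of 0.00129), and in deleted 6 it was the highest of the 5 libraries, where Mrpl44 was the lowest. The genes also overlap on opposite strands, and 7.66% of Mrpl44's exon bases lie in exons of another gene, so some reads cannot be assigned between them.

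Mrpl17, with a bacterial counterpart that lines the exit of the peptide tunnel, stood at 84.2, 92.3 and 66.3 CPM in deleted 2, 4 and 6, against 155 and 121 CPM in wild-type 1 and 3. The groups did not overlap. Its log2 fold change was -0.77 ± 0.23 with all 5 libraries (edgeR adjusted p of 0.269) and -0.63 ± 0.16 without deleted 6 (edgeR adjusted p of 0.0506), just outside the threshold. Mrpl19, another large-subunit protein with a bacterial counterpart, stood at 67.5, 60.6 and 48.8 CPM in the deleted libraries, against 84.9 and 85.5 CPM in the wild-type ones. Its log2 fold change was -0.53 ± 0.20 with all 5 libraries (edgeR adjusted p of 0.321) and -0.40 without deleted 6 (edgeR adjusted p of 0.0982), and 36.0% of its exon bases lie in exons of Gcfc2 or other genes, so its counts are uncertain. Mrpl18, a protein of the large subunit's central protuberance, had 95.9, 89.9 and 58.4 CPM in the deleted libraries and 128 and 120 CPM in the wild-type ones, again without overlap. Its log2 fold change was -0.61 ± 0.26 with all 5 libraries (edgeR adjusted p of 0.356) and -0.40 ± 0.13 without deleted 6 (edgeR adjusted p of 0.0902).

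Mrpl16, Mrpl15 and Mrpl30 completed the 8 lowest fold changes with all 5 libraries, and Mrpl36 was among the 8 lowest without deleted 6; all 4 are large-subunit proteins with bacterial counterparts. Mrpl16, Mrpl15, Mrpl30 and Mrpl36 had log2 fold changes of -0.50, -0.47, -0.42 and -0.39 with all 5 libraries, with groups that did not overlap and edgeR adjusted p-values of 0.355 to 0.478. Without deleted 6 they were -0.27, -0.24, -0.32 and -0.33, in the same order. Mrpl15 was low in deleted 6, with 94.2, 92.0 and 53.1 CPM in the deleted libraries, against 118 and 103 CPM in the wild-type ones. Mrpl13 was at -0.37 with all 5 libraries and at -0.40 without deleted 6. Mrpl12, a protein of the ribosomal stalk that is also known to bind the mitochondrial RNA polymerase, averaged 59.6 ± 12.4 CPM in the deleted libraries (SD, n = 3) and 75.0 ± 3.73 CPM in the wild-type ones (SD, n = 2), with log2 fold changes of -0.33 with all 5 libraries (edgeR adjusted p of 0.511) and -0.16 without deleted 6. Mrpl41, a mitochondria-specific large-subunit protein, changed order with deleted 6. Deleted 2 and 4 held 34.4 and 34.3 CPM and deleted 6 held 59.4 CPM, against 48.9 and 48.3 CPM in the wild-type libraries. Its log2 fold change was -0.19 with all 5 libraries and -0.49 without deleted 6, where the edgeR adjusted p was 0.0628.

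**Figure D3:**
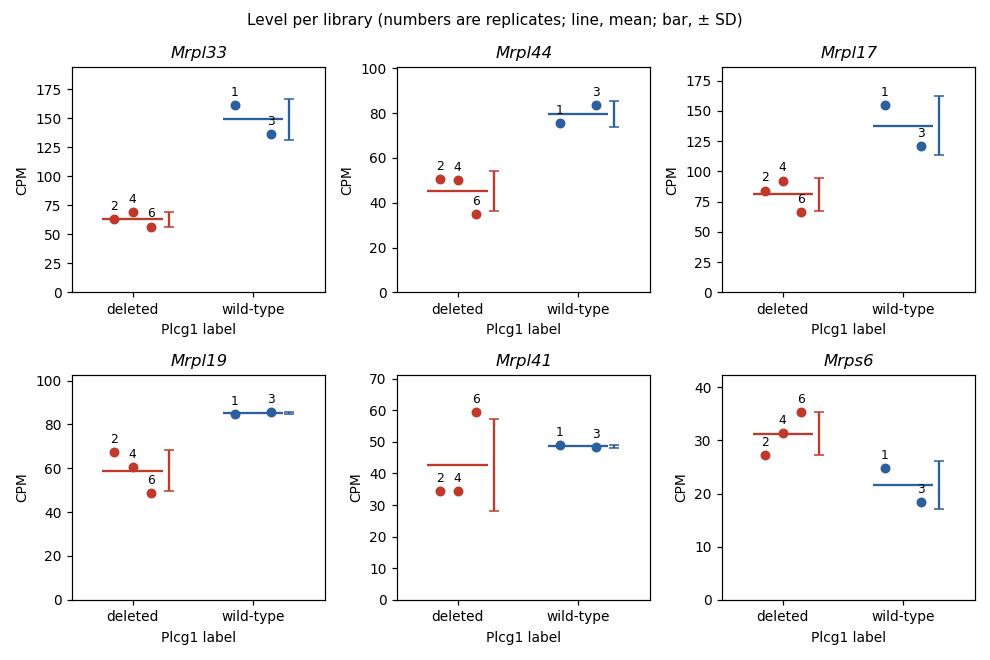
CPM (vertical axis) of 6 ribosomal protein genes in each library, by Plcg1 label; numbers are replicates, lines group means and bars ± SD (n = 3 deleted, n = 2 wild-type). Mrpl33, Mrpl44, Mrpl17 and Mrpl19 lie lower in all deleted libraries, Mrps6 lies higher in all of them, and Mrpl41 is high in deleted 6 alone of the deleted libraries.

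Mrps6, a small-subunit protein with a bacterial counterpart (ENSMUSG00000039680.9; chr16:92058270-92112227, plus strand), was the only gene of the 77 that lay higher in every deleted library than in both wild-type ones. Its levels were 27.3, 31.3 and 35.3 CPM in deleted 2, 4 and 6, against 24.8 and 18.5 CPM in wild-type 1 and 3. The lowest deleted and the highest wild-type value were close, at 27.3 and 24.8 CPM. The log2 fold change was 0.53 ± 0.24 (SE) with an edgeR adjusted p of 0.364, and 0.45 ± 0.20 with an edgeR adjusted p of 0.197 without deleted 6. Slc5a3, a myo-inositol transporter gene that overlaps Mrps6 on the same strand, stood at 13.5, 18.8 and 18.4 CPM in the deleted libraries and 7.76 and 4.68 CPM in the wild-type ones. Slc5a3 had a log2 fold change of 1.44 with all 5 libraries (edgeR adjusted p of 0.212). Without deleted 6 it was 1.39 (edgeR adjusted p of 0.0343), larger than that of Mrps6. Exons of other genes hold 19.9% of Mrps6's exon bases, so reads of Mrps6 and Slc5a3 may not be fully separated.

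Among 26 small-subunit proteins no gene was called by edgeR, DESeq2 or limma-voom, with or without deleted 6. With all 5 libraries these tools called 0.0%, 3.05% and 5.87% of all genes lower and 0.0%, 5.75% and 7.63% higher. Without deleted 6 they called 5.07%, 7.66% and 4.99% lower and 7.89%, 10.9% and 7.53% higher. The small subunit had a median log2 fold change of -0.19 with all 5 libraries and -0.11 without deleted 6, next to -0.18 and -0.13 for the large subunit. The 3 paralogues that share descent from one bacterial protein had log2 fold changes smaller than their standard errors with all 5 libraries, Mrps18a 0.12 ± 0.19, Mrps18b 0.07 ± 0.18 and Mrps18c -0.25 ± 0.26. Of these, Mrps18a sits in the large subunit, as does Mrps30 (-0.23 ± 0.24, and -0.067 without deleted 6) despite its name. Mrps35, a mitochondria-specific small-subunit protein, had 45.4, 42.1 and 23.9 CPM in deleted 2, 4 and 6, against 53.5 and 44.7 CPM in wild-type 1 and 3. Deleted 6 was the low library there, and the groups overlapped. On the positive side of the fit of all 5 libraries lay Mrpl27 (0.30), Mrpl48 (0.26), Mrps36 (0.18), Mrpl52 (0.14), Mrpl38 (0.13) and Mrps7 (0.09). Without deleted 6, Mrpl27 and Mrps36 were at 0.085 and 0.057, Mrpl48 at 0.19, Mrpl52 at 0.19, Mrpl38 at 0.20 and Mrps7 at 0.15, beside Mrpl45 (0.18), Mrpl9 (0.12) and Mrps31 (0.12), none of them called.

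Several ribosomal protein genes start head to head with another coding gene, within 1000 bases, and 23 such pairs were tested. In deleted 6, the partner was under 0.5 times the mean of the other 4 libraries in 6 pairs and over 2 times it in 3, while the ribosomal protein gene was beyond these bounds in 0 pairs. The partners' shares were close to the 23.6% and 16.5% of all genes. Mrpl51, a mitochondria-specific large-subunit protein, had 55.7, 55.3 and 57.3 CPM in deleted 2, 4 and 6, against 67.3 and 65.6 CPM in wild-type 1 and 3. Its partner Ncapd2, a condensin subunit used in mitosis, had 145, 114 and 7.12 CPM in deleted 2, 4 and 6, against 182 and 222 CPM. Mrpl27, with a bacterial counterpart at the peptidyl transferase centre, had 29.1, 27.8 and 43.4 CPM in the deleted libraries and 28.95 and 25.2 CPM in the wild-type ones. Its partner Eme1, a DNA repair endonuclease subunit, had 26.4, 21.1 and 1.02 CPM in the deleted libraries and 30.9 and 33.0 CPM in the wild-type ones. Mrpl57's partner Ska3, a kinetochore protein, was likewise at 2.24 CPM in deleted 6 and at 34.1 to 42.9 CPM in the other libraries.

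**Figure D4:**
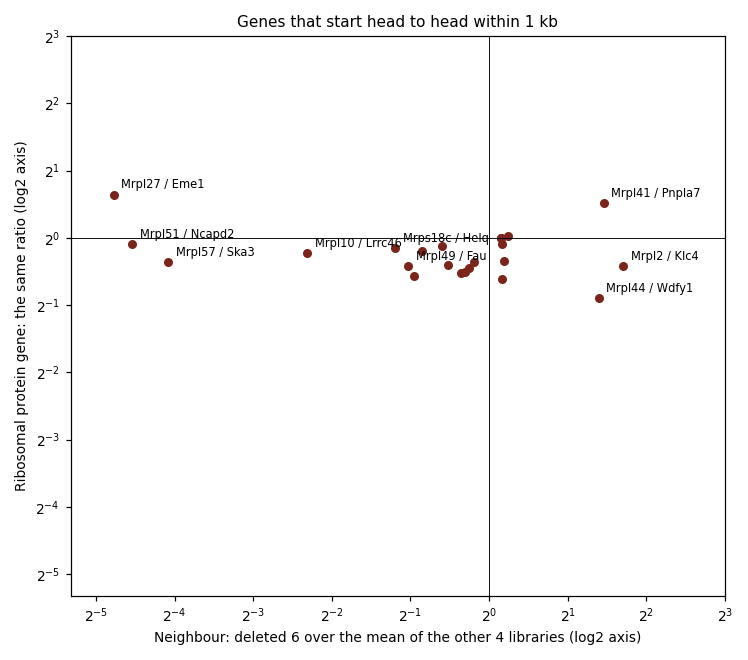
Ratio of deleted 6 to the mean of the other 4 libraries for the ribosomal protein gene (vertical) and its head-to-head partner (horizontal), both on log2 axes, for 23 pairs. The ribosomal protein genes span 0.538 to 1.56 and their partners 0.0365 to 3.27.

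Of the other genes of mitochondrial translation, edgeR called 1 lower and 0 higher with deleted 6 left out, a fit in which it called 5.07% of all genes lower and 7.89% higher. The 6 mitoribosome subunits whose symbols lie outside Mrpl and Mrps (Dap3, Ptcd3, Aurkaip1, Chchd1, Gadd45gip1 and Ict1) summed to 350, 342 and 311 CPM in deleted 2, 4 and 6, against 428 and 397 CPM in wild-type 1 and 3. Their median log2 fold change was -0.30 with all 5 libraries and -0.18 without deleted 6, and 0 of 6 were called in either fit. Aurkaip1, a small-subunit protein, had the lowest fold change among them without deleted 6, at -0.46 (edgeR adjusted p of 0.0555). The 16 translation factors (initiation, elongation, release and membrane insertion) summed to 635, 611 and 592 CPM in the deleted libraries and 665 and 639 CPM in the wild-type ones, with a median of -0.13, or -0.10 without deleted 6, and 0 called. Of 31 assembly and rRNA modification factors, 1 fell without deleted 6, Mtg1, a GTPase of large-subunit assembly, at -0.77 ± 0.16 (edgeR adjusted p of 0.0269). It had 24.4, 21.3 and 26.5 CPM in the deleted libraries and 37.3 and 41.1 CPM in the wild-type ones. The 10 genes of mitochondrial transcription and genome maintenance had a median of -0.31 with all 5 libraries and -0.14 without deleted 6, with 0 called.

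Among regulators named for mitochondrial biogenesis, Myc, a broad activator of growth genes, stood at 184, 133 and 15.9 CPM in deleted 2, 4 and 6, against 298 and 275 CPM in wild-type 1 and 3. It fell by 0.84 on the log2 scale without deleted 6 (edgeR adjusted p of 0.0306), and in deleted 6 it was far below every other library. Nrf1 stood at 72.4, 74.96 and 53.98 CPM in the deleted libraries and 85.6 and 91.1 CPM in the wild-type ones. Gabpa stood at 70.5, 82.2 and 47.6 CPM against 83.2 and 83.1 CPM, and neither gene was called. The 10 regulators listed did not all move this way. The 8 tested had a median log2 fold change of -0.13 with all 5 libraries and 0.061 without deleted 6. Of the 10, 5 were lowest and 2 highest in deleted 6, against 38.2% and 36.2% of all genes. The summed ribosomal protein transcripts in deleted 6 were 0.784 times the mean of the wild-type libraries, while the proliferation markers were 0.0484 times it. The part of proliferation, cell type or Myc in the ribosomal protein levels was not tested.

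**Figure D5:**
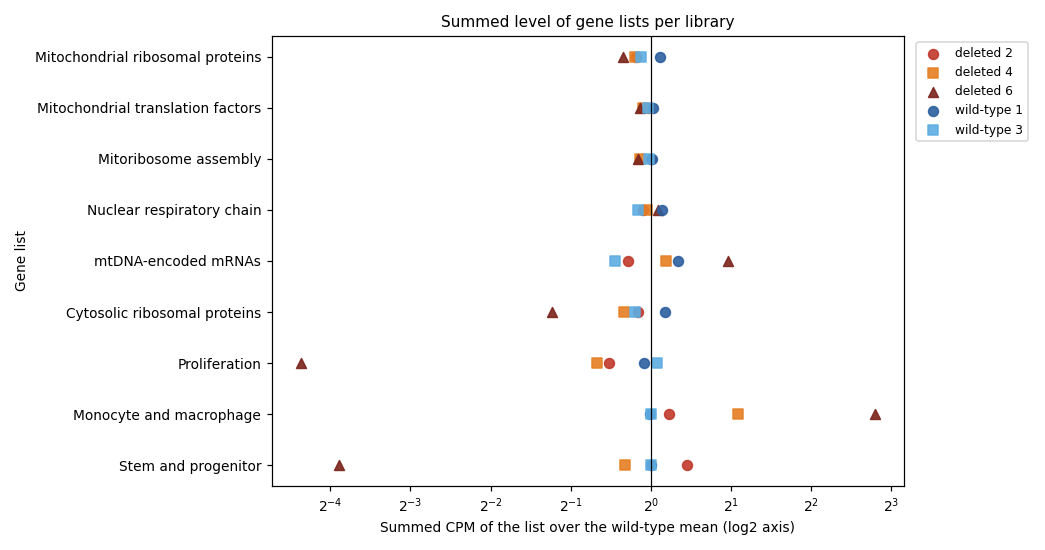
Summed CPM of each gene list in each library over the mean of the wild-type libraries (horizontal, log2 axis); lists run down the page and each symbol is 1 library. In deleted 6 the mitochondrial ribosomal proteins lie at 0.784 times the wild-type mean and the proliferation markers at 0.0484 times it; the macrophage and the stem and progenitor markers of deleted 6 also lie far from 1. The neutrophil granule markers, which are not drawn, were at 0.0702 times it.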

How the data were processed

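RNA was extracted with Trizol and turned into libraries with the SMART-Seq v4 and Nextera XT kits, which do not mark strand, per the labels' protocols, and sequenced as single-end reads. Per the submitters' processing notes, the tools were STAR, without a version, bcl2fastq 1.8.4 and DESeq2 1.12.4, on mm10; no source used here names the annotation or how reads were assigned. The authors deposited raw counts per gene for each library and a table of normalised signal, which a check of the files found to be the counts over a single factor for each library. A further table of transformed values was not used.

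The 77 genes were read from the normalised table and their counts from the 5 count tables of 46603 genes. Entries without a gene were left out of depth and tests: 5.89% to 8.09% of a library's reads had no feature, 2.36% to 2.78% were ambiguous, 2.48% to 4.13% were unaligned and 13.0% to 15.1% aligned to several places. A count of 3 corresponds to 0.0525 to 0.0804 CPM, a limit that covers counting error only. No library was a copy of another, since each pair differed well beyond sampling noise (chi-square at least 50.2 per gene).

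All genes that passed filterByExpr (16120) were scaled by TMM and compared by the quasi-likelihood F test of edgeR (edgeR 4.0.16, limma 3.58.1, R 4.3.3) on the labelled genotype, with 3 residual degrees of freedom and Benjamini-Hochberg adjustment over all genes; an adjusted p under 0.05 was a call. The SE of a log2 fold change is its absolute value divided by the root of the F statistic. With 3 and 2 libraries the smallest two-sided p of an exact permutation test is 0.1, and no such test was run. The fits were tested on simulated data. Alternatives were DESeq2 size factors, no filter, a stricter filter, DESeq2 1.42.0, limma-voom with sample quality weights, each library left out in turn and lane 4 alone. DESeq2 and limma-voom without deleted 6, the median without genes that share over 20% of their exon bases, and length by the longest coding transcript were added after seeing the data. Levels per length use merged exons of GENCODE M21 on GRCm38, the build of mm10; all 77 identifiers were found. Shared exon bases and 50-base stretches were counted against all other genes of that annotation. Promoters are from RefSeq (GRCm38.p6).

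The genes and lists were chosen with earlier results of these data known. Named genes are the 8 highest and 8 lowest fold changes with and without deleted 6, the 6 highest and 4 lowest levels per length, genes that failed the filter, Mrpl12, Mrps18a, Mrps18b, Mrps18c, Mrps30 and Mrps36, and up to 2 genes per list and direction; Mrpl51, Mrpl57 and the neighbouring genes, Mrpl23-ps1 and Runx1t1 were chosen after their values were seen.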

Additional observations from a re-analysis of the deposited data

Results flagged for a closer look

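The pseudogene Mrpl23-ps1, which the symbol rule leaves out, drew attention because it carried reads in every library, above the 3 counts that a count of 0 allows. It had 32, 31 and 25 counts in deleted 2, 4 and 6 and 29 and 32 counts in wild-type 1 and 3. Its lowest count, 25, was in deleted 6, and its highest was 32. Mrpl23 itself had 0.858, 1.53 and 1.04 CPM in deleted 2, 4 and 6 and 1.49 and 1.03 CPM in wild-type 1 and 3. The copies share 50-base stretches, and which of them the reads came from was not tested.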

How the results depend on the processing

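With all 5 libraries edgeR called 0 genes (unadjusted p under 0.05 for 1522 higher and 874 lower genes). The count was 278 without a filter, 1419 with DESeq2, 2177 with limma-voom, 342 in lane 4 alone, and 0 to 2045 with single libraries left out, the highest without deleted 6. Without deleted 6, DESeq2 called 2925 and limma-voom 1976. Ribosomal protein genes called lower, 0 in edgeR's test of all 5 libraries, numbered 1 in DESeq2 (Mrpl33), 4 in limma-voom, and 0 to 2 with single libraries left out. Without deleted 6, DESeq2 called 4 (Mrpl17, Mrpl33, Mrpl41 and Mrpl44) and limma-voom 2. None was called higher in any of these fits. Their median log2 fold change of -0.18 ran from -0.27 to -0.052 with single libraries left out and was 0.0033 in lane 4 alone; with 1 library left in a group, that library was assumed to vary like the others. With an exact NRF1 core (GCGCATGCG) 9.46% of the promoters matched, in place of 21.6%. Of 352 alternative values for single genes, 324 kept direction and side of the threshold, 7 came past the threshold and 21 changed sign. In lane 4 alone Mrpl20 was at 0.18, Mrpl23 at 0.23, Mrpl34 at 0.023, Mrps18c at 0.14 and Mrps30 at 0.070; Mrpl23 was at 0.14 in limma-voom. With single libraries left out, these crossed zero: Mrpl20 (-0.32 to 0.13), Mrpl23 (-0.40 to 0.15), Mrpl45 (-0.11 to 0.18), Mrpl52 (-0.18 to 0.55), Mrpl9 (-0.093 to 0.12), Mrps18a (-0.0065 to 0.26), Mrps18b (-0.045 to 0.20), Mrps18c (-0.55 to 0.12), Mrps21 (-0.29 to 0.42), Mrps31 (-0.016 to 0.12), Mrps7 (-0.00061 to 0.18). The cause was not tested. No paired analysis was possible because the groups share no replicate numbers. Depth is no limit for most of these genes, but Mrpl53 lies near the floor of 3 counts, and 5 libraries limit the precision of every fold change.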

Other observations

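In deleted 6 the counted transcripts of cytosolic ribosomal proteins differed from those of the mitochondrial ones. Reads that aligned to several places are kept apart from the genes. Their share for the cytosolic genes was not measured, so these sums may be incomplete. The 91 cytosolic ribosomal protein genes found summed to 4921, 4385 and 2335 CPM in deleted 2, 4 and 6, against 6200 and 4813 CPM in wild-type 1 and 3, and 81 of the 91 were lowest in deleted 6, against 38.2% of all genes. Their median log2 fold change was -0.52 with all 5 libraries and -0.23 without deleted 6, and 85 of them were tested. With all 5 libraries edgeR called 0. Before adjustment 1 gene in each direction had an edgeR p under 0.05, against 9.44% higher and 5.42% lower over all genes. DESeq2 called 1 of the 85 higher, Rps4l, and 0 lower, against 5.75% and 3.05% of all genes. Without deleted 6 edgeR called Rps4l higher and 0 lower, against 7.89% and 5.07% of all genes. The 81 nuclear-encoded respiratory chain subunits summed to 11615, 12000 and 13206 CPM in the deleted libraries and 13670 and 11084 CPM in the wild-type ones, with a median of 0.02 with all 5 libraries and -0.05 without deleted 6.

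The counted messenger RNAs that the mitochondrial ribosome translates varied more in sum than the transcripts of its own proteins. Those listed with reads summed to 3133, 4378 and 7465 CPM in deleted 2, 4 and 6, against 4863 and 2798 CPM in wild-type 1 and 3, and the groups overlapped. The transcripts mt-Co2, mt-Co3, mt-Atp8 and mt-Nd4l are listed at 0 in every library. The mitochondrial ribosomal RNAs summed to 1733, 1574 and 2251 CPM in the deleted libraries and 2094 and 854 CPM in the wild-type ones.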
